A study of Rattus norvegicus with 4 samples.

Results

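The genes described here are 8 keratins and surface proteins of epithelial cells, namely Krt8, Krt18, Krt19, Cd24, Epcam, Cdh1, Cldn3 and Muc1, followed on oligonucleotide arrays of rat myometrium. Members were all probe sets of the array whose single gene symbol in the platform annotation was one of these 8 names. This gave 7 of the 4736 genes named on the array, through 12 of the 8740 probe sets that are not array controls. No probe set carried the symbol Cdh1 alone, so E-cadherin has no value here. Krt18, Krt19 and Cldn3 have 2 probe sets each and Cd24 has 3, and every probe set is given below.

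The study took the myometrium, the muscular wall of the uterus, from rats aged 60 days. All animals, vehicle controls included, had been ovariectomized a week before treatment, so the controls lack ovarian hormones too. The 4 groups were estradiol benzoate at 10 µg per kg under the skin or its vehicle, each collected at 24 h, and the same pair collected at 6 h. Each group is 1 array of the RG_U34A type carrying total RNA pooled from 6 animals. There is no spread between replicates, animals cannot be told apart within a pool, and a difference between 2 arrays compares 2 pools and was not tested.

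Keratins are the intermediate filament proteins of epithelial cells. They assemble only as pairs of a type II keratin such as Krt8 with a type I keratin such as Krt18 or Krt19, and this set is typical of single-layered epithelia. Epcam and Cdh1 join epithelial cells to each other, Cldn3 is a tight junction protein, Muc1 is a mucin of the free surface, and Cd24 is a small mucin-like surface glycoprotein that B cells and granulocytes also carry. In the uterus such epithelium lines the lumen and glands of the endometrium, which lies against the inner face of the myometrium, and the mesothelium on its outer face also makes these keratins.

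Values are MAS5 signals, in intensity units, scaled so that the trimmed mean of every array is 500. A signal floor was set at the 40th percentile of each array, between 89.5 and 108 units, and signals below it were raised to it before taking log2. A probe set is called different when the log2 difference reaches 1, that is 2-fold, and its brighter array is above the floor. A fold is written as "at least" where the dimmer array is not above its floor. Both arrays at 24 h were scanned on the same day and both at 6 h on another, so the times cannot be told apart from the scan days. Per the file headers, washing of the 24 h control array was logged with a communication error. The median signal lay between 144 and 169 over the 4 arrays. Spiked-in control transcripts, over 9 probe sets, were 1.35-fold as bright with estradiol as in the control at 24 h, 0.763-fold as bright on the array labelled estradiol as on that labelled control at 6 h, and 1.75-fold as bright in the 24 h control as in the 6 h control. Of the smooth muscle genes listed, all 10 with a probe set were above the floor on all 4 arrays.

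The labels at 6 h need a word before the results. Igf1, Pgr, S100g and Hsd11b2, known estrogen-induced genes of the rat uterus, were all at least 2-fold higher with estradiol at 24 h and all at least 2-fold lower on the array labelled estradiol at 6 h. Their summed signals were 26121 with estradiol against 6747 in the control at 24 h, and 2934 on the array labelled estradiol against 28248 on that labelled control at 6 h. The early labels are thus opposed by these 4 genes, and every direction at 6 h is given for the arrays as labelled. The comparison at 24 h uses neither array of 6 h.

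At 24 h, 6 of the 7 measured genes were at least 2-fold higher with estradiol than in the control and 0 lower. Of the 12 probe sets 10 were higher, against 8.86% of all probe sets that were above the floor on either array, and 0 were lower, against 8.93%. At 6 h, 7 of the 12 probe sets, of Krt8, Krt18, Krt19 and Cd24, were at least 2-fold lower on the array labelled estradiol, against 5.77% of all probe sets, and 0 were higher, against 7.45%. The median log2 difference of the 12 probe sets was 1.89 at 24 h and -1.45 at 6 h, where the medians over all probe sets were -0.17 and -0.08. Those 2 medians equal the log2 ratios of the floors, the value given to a probe set dim on both arrays. They are therefore no measure of a typical change. The same 7 probe sets were at once higher at 24 h and lower at 6 h, as were 1.51% of all probe sets above a floor. With the floor raised to the 60th percentile 6 probe sets were higher at 24 h, Epcam and Cldn3 no longer passing, and 3 lower at 6 h, all of Cd24. Against the control of the other time, a comparison added after the values were seen, 4 were higher with estradiol at 24 h, of Krt8, Krt19, Epcam and Cldn3, and 1 was lower with the estradiol label at 6 h, that of Krt8. Probe sets of 1 gene share their target, so the 12 are not independent, and in RNA from whole tissue fewer cells of a type and less RNA per cell cannot be told apart.

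**Figure D1:**
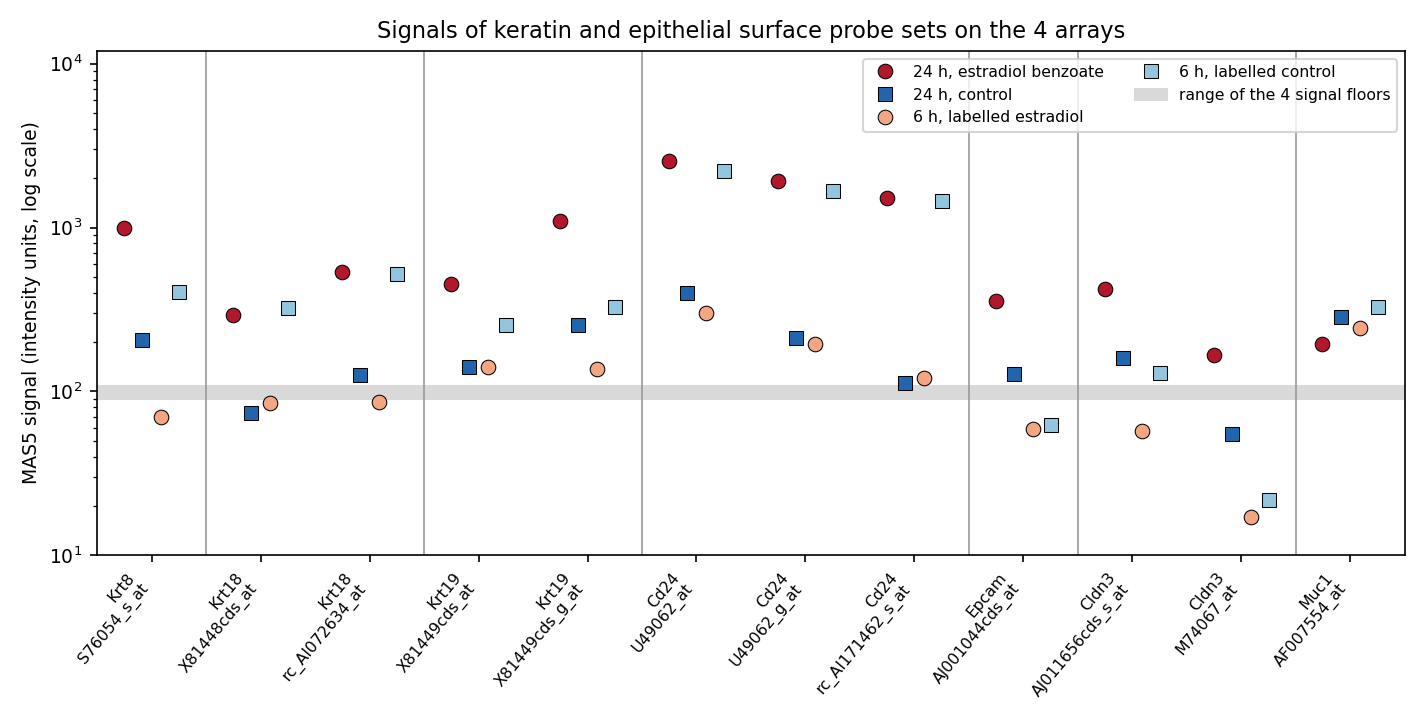
MAS5 signals, in intensity units on a log axis, of the 12 probe sets of keratins and epithelial surface markers, 1 point per array; the grey band spans the signal floors of the 4 arrays. For Cd24 and Krt18 the 24 h estradiol array and the array labelled control at 6 h lie together above the other pair, while Epcam and Cldn3 are highest on the 24 h estradiol array alone.

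Krt8, the type II keratin, was read by 1 probe set. Its signal was 996 with estradiol against 206 in the control at 24 h, and 69.5 on the array labelled estradiol against 404 on that labelled control at 6 h. The array labelled estradiol at 6 h was thus not above its floor, and the 24 h estradiol array stood highest. Krt8 was 4.84-fold higher with estradiol at 24 h and at least 3.94-fold lower with the estradiol label at 6 h. The name of its probe set ends in _s_at, which marks probes that may read more than 1 transcript.

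Krt18, the type I partner of Krt8, was read by a pair of probe sets made from different sequences. The brighter read 538 with estradiol against 127 in the control at 24 h, and 85.8 on the array labelled estradiol against 520.2 on that labelled control at 6 h. The dimmer had 293 with estradiol against 73.3 in the control at 24 h, and 84.9 on the array labelled estradiol against 323 on that labelled control at 6 h. On both, the 24 h estradiol array and the array labelled control at 6 h had nearly the same signal and the other arrays lay far lower, at or near the floor. By the brighter probe set Krt18 was 4.25-fold higher with estradiol at 24 h and at least 5.07-fold lower with the estradiol label at 6 h, and by the dimmer it was at least 2.91-fold higher at 24 h and at least 3.15-fold lower at 6 h. In the RefSeq table of the GRCr8 assembly, Krt8 and Krt18 are next to each other among protein-coding genes on chromosome 7.

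Krt19, another type I keratin of simple epithelia, was also read by a pair of probe sets, made from the same sequence. The brighter had signals of 1101 with estradiol against 255 in the control at 24 h, and 137 on the array labelled estradiol against 328 on that labelled control at 6 h. The dimmer had 455 with estradiol against 141 in the control at 24 h, and 142 on the array labelled estradiol against 256 on that labelled control at 6 h. Here the 24 h estradiol array stood clear of the array labelled control at 6 h, unlike for Krt18. Krt19 was 4.32-fold higher with estradiol at 24 h by the brighter probe set and 3.23-fold by the dimmer. At 6 h it was 2.39-fold lower with the estradiol label by the brighter and 1.81-fold, under the 2-fold rule, by the dimmer.

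Cd24 had the highest signals and the widest differences of the group. Its brightest probe set read 2543 with estradiol against 401 in the control at 24 h, and 300.1 on the array labelled estradiol against 2199 on that labelled control at 6 h. A second probe set of the same sequence read 1927 with estradiol against 212 in the control at 24 h, and 196 on the array labelled estradiol against 1669 on that labelled control at 6 h. The third, from another sequence and ending in _s_at, read 1516 with estradiol against 113 in the control at 24 h, and 119.9 on the array labelled estradiol against 1455 on that labelled control at 6 h. All 3 give the same picture of high signals on the 24 h estradiol array and the array labelled control at 6 h, which were at least 5.49-fold above the other pair in every case. At 24 h Cd24 was 6.35-fold, 9.10-fold and 13.4-fold higher with estradiol by these probe sets, and at 6 h it was 7.33-fold, 8.53-fold and 12.1-fold lower with the estradiol label.

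Epcam, the epithelial adhesion molecule, did not follow Cd24 and Krt18 at 6 h. Its signal was 355 with estradiol against 127 in the control at 24 h, and 58.5 on the array labelled estradiol against 62.6 on that labelled control at 6 h. Neither 6 h array was above its floor, so no fold is given there, and at 24 h Epcam was 2.79-fold higher with estradiol. Cldn3, the tight junction protein, had signals by its brighter probe set of 420.5 with estradiol against 159.7 in the control at 24 h, and 57.3 on the array labelled estradiol against 129.5 on that labelled control at 6 h. By its dimmer probe set the signals were 167 with estradiol against 55.2 in the control at 24 h, and 17.0 on the array labelled estradiol against 21.8 on that labelled control at 6 h, with only the first of these above the floor. Cldn3 was 2.63-fold higher with estradiol at 24 h by the brighter and at least 1.66-fold, under the rule, by the dimmer. The name of the brighter ends in _s_at, as that of Krt8 does, so the only Cldn3 probe set to pass may read more than 1 transcript. At 6 h the brighter was at least 1.26-fold lower with the estradiol label, also under the rule. With the signal floor at the 20th percentile, the 6 h log2 difference of Cldn3 was -1.18 and passed the 2-fold rule.

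Muc1, the surface mucin, went the other way at 24 h and stayed under the 2-fold rule throughout. Its signal was 194 with estradiol against 283 in the control at 24 h, and 244 on the array labelled estradiol against 329 on that labelled control at 6 h. It was above the floor on all 4 arrays, which differed little, with the 24 h estradiol array lowest. Muc1 was 1.46-fold lower with estradiol at 24 h and 1.35-fold lower with the estradiol label at 6 h.

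**Figure D2:**
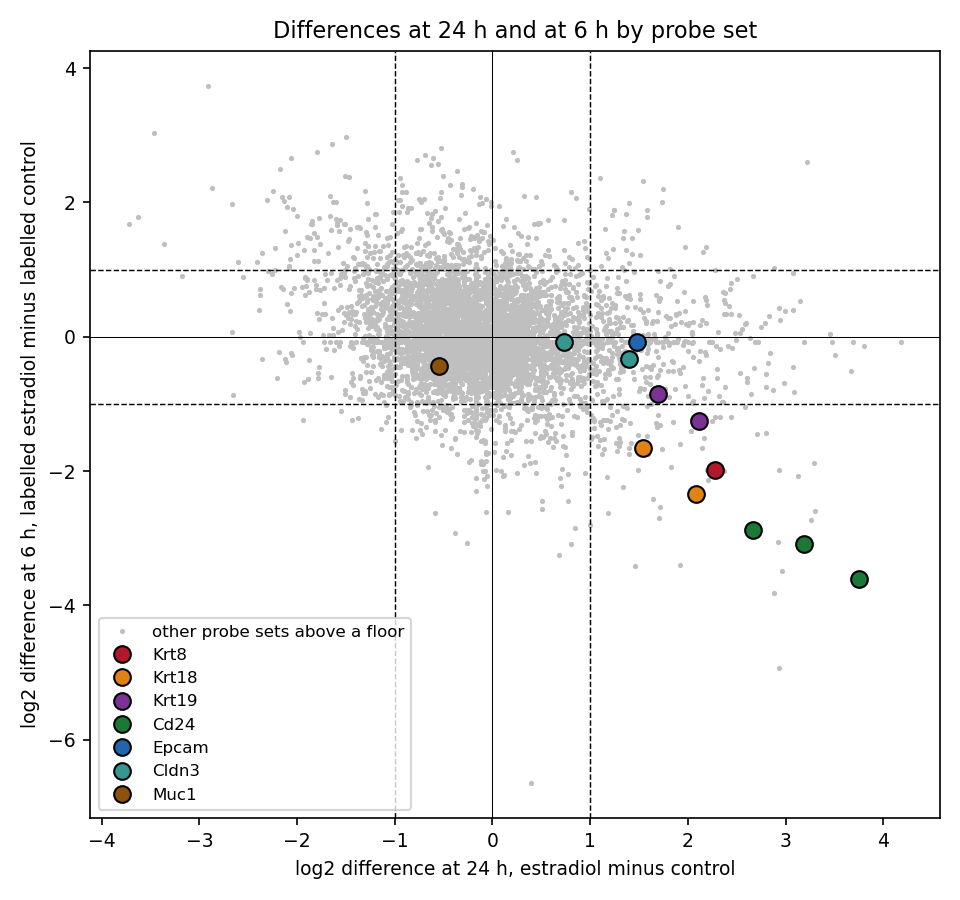
Log2 difference of each probe set at 24 h (x axis, estradiol minus control) and at 6 h (y axis, labelled estradiol minus labelled control), with the 12 keratin and surface marker probe sets coloured by gene, all others above a floor in grey, and dashed lines at the 2-fold rule. The Cd24, Krt8 and Krt18 points and 1 of the Krt19 points lie in the lower right corner, Epcam and Cldn3 lie near 0 on the y axis, and Muc1 lies left of 0.

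The control of 24 h was also set against the control of 6 h, a comparison that shares an array with each of the comparisons above and rests on the doubted control label of 6 h. Igf1, Pgr, S100g and Hsd11b2 were all at least 2-fold lower in the 24 h control, Igf1 by 11.8-fold and Hsd11b2 by 4.76-fold. Of the 12 probe sets 5 were at least 2-fold lower in the 24 h control, against 10.0% of all probe sets, and 0 were higher, against 8.94%. These were the probe sets of Krt18, with the brighter 4.11-fold lower, and of Cd24, with the brightest 5.49-fold lower. Krt8 was 1.96-fold and Krt19 1.29-fold lower in the 24 h control, both under the rule. Epcam was at least 1.18-fold and Cldn3 1.23-fold higher, also under the rule. By the array that carried the highest signal the probe sets split into 10 that peaked with estradiol at 24 h and 2 that peaked on the array labelled control at 6 h, namely the dimmer probe set of Krt18 and that of Muc1. The lowest signal was on the array labelled estradiol at 6 h for 8 of the 12.

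Promoter sequence is shown for the 2 genes that were high on the same pair of arrays, Krt18 and Cd24, and for the 2 that were highest at 24 h alone, Epcam and Cldn3. RefSeq promoter entries of the rat assembly GRCr8 matched 6 of the 8 genes. Printed are the 250 bases before the annotated start, from chr7:135035918-135036167 on the plus strand for Krt18, chr20:48656227-48656476 on the plus strand for Cd24, chr6:12649679-12649928 on the minus strand for Epcam and chr12:27346548-27346797 on the minus strand for Cldn3. Capitals mark GGTCA, an arm of the estrogen response element, on either strand.
Krt18: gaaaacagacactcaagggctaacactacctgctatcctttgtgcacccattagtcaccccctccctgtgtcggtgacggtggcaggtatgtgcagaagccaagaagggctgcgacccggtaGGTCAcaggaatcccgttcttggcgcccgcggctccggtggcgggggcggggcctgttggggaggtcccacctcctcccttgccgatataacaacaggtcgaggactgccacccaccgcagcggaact
Cd24: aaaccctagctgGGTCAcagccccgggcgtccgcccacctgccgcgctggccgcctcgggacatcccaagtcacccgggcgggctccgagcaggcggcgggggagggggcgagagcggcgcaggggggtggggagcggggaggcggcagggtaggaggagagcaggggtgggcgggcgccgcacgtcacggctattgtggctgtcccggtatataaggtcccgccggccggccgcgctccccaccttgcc
Epcam: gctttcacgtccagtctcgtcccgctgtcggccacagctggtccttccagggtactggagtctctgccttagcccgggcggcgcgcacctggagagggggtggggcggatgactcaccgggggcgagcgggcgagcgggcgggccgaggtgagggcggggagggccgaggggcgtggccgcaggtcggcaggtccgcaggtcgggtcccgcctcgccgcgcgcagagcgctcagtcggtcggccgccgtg
Cldn3: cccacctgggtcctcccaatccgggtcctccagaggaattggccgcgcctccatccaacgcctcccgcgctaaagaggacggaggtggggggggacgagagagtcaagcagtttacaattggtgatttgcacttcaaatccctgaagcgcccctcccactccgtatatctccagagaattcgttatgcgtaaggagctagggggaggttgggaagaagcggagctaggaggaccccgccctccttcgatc
The whole palindrome GGTCANNNTGACC was in none of the 6 matched promoters, and 0.0239% of 33465 rat promoters of the same length hold it. The arm GGTCA, read on both strands, occurred 1 time each in the promoters of Krt18 and Cd24, beginning 128 and 238 bases before the start, and was not in those of Krt8, Epcam, Cldn3 and Muc1. It is a common string that 35.4% of all promoters hold. The GC box GGGCGG, on both strands, occurred 1 time in Krt18, 3 times in Cd24, 4 times in Epcam 1 time each in Cldn3 and Muc1 and 0 times in Krt8, and is held by 30.5% of promoters. It does not overlap the arm in any of these windows. These counts describe letters in short windows and say nothing of binding.

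Likeness of profile was measured as the root mean square distance between log2 signals centred over the 4 arrays, among 3325 genes above the floor on at least 2 arrays. It is a description over 4 arrays, and distances of Krt8 and Krt18 depend in part on the floor of the array labelled estradiol at 6 h. The same holds for Cldn3, Plaur, Ppil3 and B4galt1, and Epcam was not above the floor on either array of 6 h. The 5 genes nearest to Cd24 were Hsd11b2 at a distance of 0.24, Krt18 at 0.29, Pgr at 0.37, Ngfr at 0.40 and Igf1 at 0.41. The 5 nearest to Krt18 were Pgr at 0.15, Scarb2 at 0.23, Mybbp1a at 0.26, Plaur at 0.28 and Cd24 at 0.29. The list of genes used to check the labels, Igf1, Pgr, S100g and Hsd11b2, thus supplies 3 of the 5 nearest to Cd24.

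Krt8 and Krt19 had different neighbours. The 5 nearest to Krt8 were Insig1 at a distance of 0.26, Krt19 at 0.28, Cyp51 at 0.31, B4galt1 at 0.35 and Lrrc59 at 0.36. The 5 nearest to Krt19 were Ppil3 at 0.11, Nme1 at 0.21, Krt8 at 0.28, Lrrc59 at 0.28 and Insig1 at 0.30. Krt18, the filament partner of Krt8, ranked 17 from Krt8 at 0.51. Cldn3 ranked 10 and Epcam 23 from Krt19, but 221 and 278 from Cd24, while Muc1 ranked 1822 from Krt8.

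Other genes listed as epithelial were read beside the keratins. Being listed does not show which cells of this tissue gave a signal, and that was not tested. Of 25 genes of epithelial junctions 9 had a probe set and 7 were above the floor on any array, and of these 0 were at least 2-fold higher or lower with estradiol at 24 h and 0 at 6 h. The summed signal of all 9 with a probe set was 3129 with estradiol against 3403 in the control at 24 h, and 4125 on the array labelled estradiol against 2742 on that labelled control at 6 h. Tjp1 and Jup made up most of each sum. In the same order, Tjp1 read 1509, 1636, 2455 and 1548, and Jup 930, 1141, 852 and 442. Cdh2 passed the floor on the 24 h control array alone, at 100.88 against 100.85. The median log2 difference of the 7 above the floor was 0.10 at 24 h and 0.50 at 6 h. Over all 3619 genes measured it was -0.17, the log2 ratio of the floors, at 24 h and -0.06 at 6 h. Of these 3619 genes 8.68% were higher and 8.04% lower at 24 h, and 6.47% and 5.08% at 6 h. Counts of 0 of 7 here, and of 1 of 12 in the next list, lie near these shares. The same shares apply to the counts of the lists further below. The widest of these differences at 24 h was that of Gjb2, a gap junction protein of epithelia, which read 196 with estradiol against 67.3 in the control, at least 1.95-fold higher and just under the rule. It was chosen after its values were seen.

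Of 31 other epithelial markers 16 had a probe set and 12 were above the floor on any array. At 24 h 1 was higher with estradiol, the membrane mucin Muc4 at 2.08-fold, and 1 lower, the protease inhibitor Spint2 at 2.29-fold, and at 6 h 0 passed the rule. Their median log2 difference was -0.10 at 24 h and -0.34 at 6 h. The summed signal of all 16 with a probe set was 4363 with estradiol against 5959 in the control at 24 h, and 6263 on the array labelled estradiol against 5052 on that labelled control at 6 h. Spint2 sets both directions of this sum. Without it the other 15 summed to 3013 with estradiol against 2862 in the control at 24 h, and 3036 on the array labelled estradiol against 3226 on that labelled control at 6 h. Among stratified keratins 5 of 11 had a probe set, Krt10 and Krt14 were above the floor on any array, and neither passed the rule at either time. Krt20, the remaining simple keratin with a probe set, was not above the floor on any array.

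Proteins that the uterine epithelium is known to secrete were read too. Like the others, this list was chosen with earlier results of these data known. Of 15 genes 12 had a probe set and 10 were above the floor. Of these 10, 5 were at least 2-fold higher with estradiol at 24 h and 2 lower, against 8.68% and 8.04% of all genes measured. The median log2 difference of the 10 was 0.97. C3, Cuzd1 and Kap were above the floor on the 24 h estradiol array alone and entered the 10 through it. That filter and the choice of the list bear on the count and the median, so neither was a test. The 3 largest differences were those of Kap, best known from the kidney, at least 18.2-fold higher, of Cuzd1, at least 13.0-fold, and of the complement protein C3, at least 11.1-fold. Mmp7, a matrix protease of epithelial cells, was 6.92-fold higher and Muc4, which both lists hold, is given above, while clusterin, Clu, was 2.33-fold and lipocalin, Lcn2, at least 2.60-fold lower. At 6 h 1 of the 10 passed the rule, Lcn2, which was 2.31-fold lower with the estradiol label. On both arrays of 6 h C3, Cuzd1 and Kap were not above the floor, as Epcam was not. Mmp7, Clu and the 24 h value of Lcn2 were singled out after the values were seen.

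**Figure D3:**
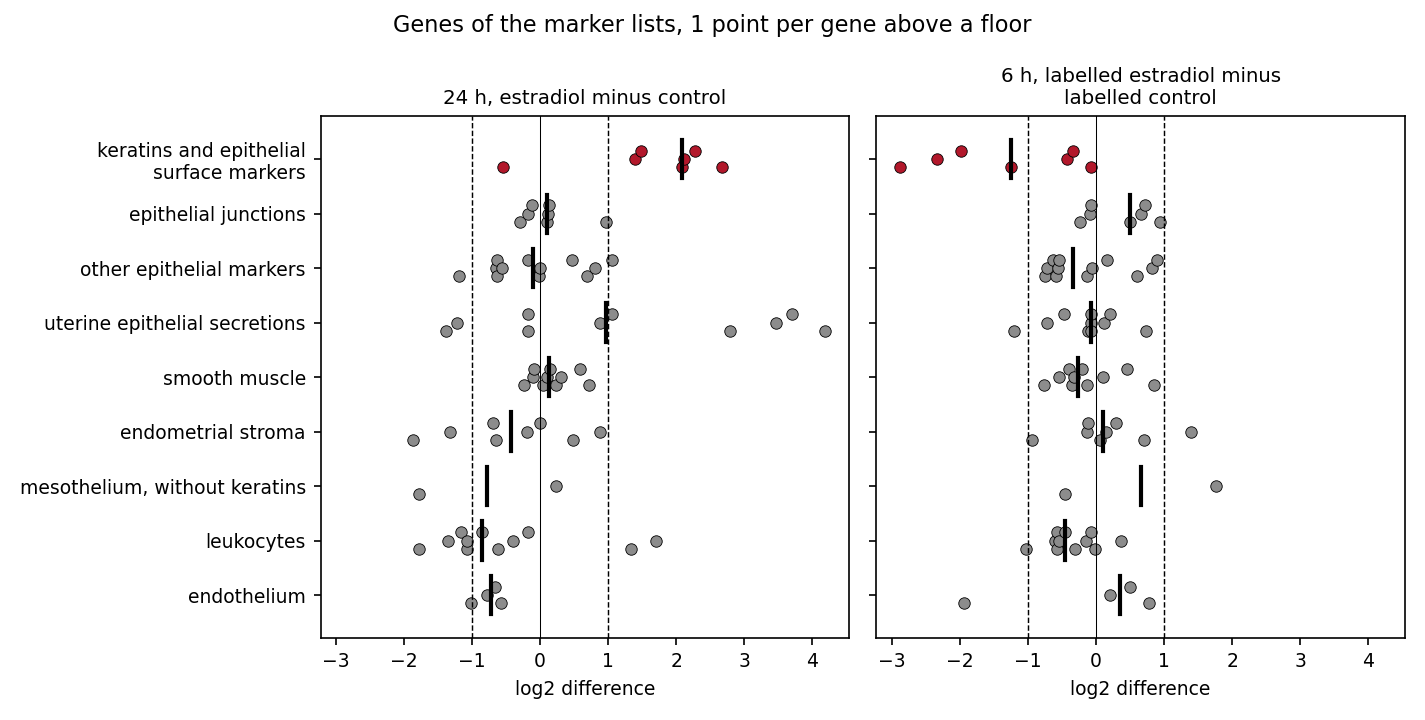
Log2 differences at 24 h (left) and at 6 h (right) for genes of each marker list that were above a floor on any array, 1 point per gene by its brightest probe set, with a bar at the list's median and dashed lines at the 2-fold rule. The keratins and surface markers, in red, have medians of 2.09 and -1.25, and the medians of junction genes are 0.10 and 0.50; genes at both floors sit at the log2 ratio of the floors.

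Markers of the muscle and of neighbouring cells were read on the same arrays. All 10 smooth muscle genes stayed under the 2-fold rule at both times, and their summed signal was 117248 with estradiol against 107966 in the control at 24 h, and 81713 on the array labelled estradiol against 96762 on that labelled control at 6 h. The summed signal of the 7 keratins and surface markers, by brightest probe set, was 6147 with estradiol against 1558 in the control at 24 h, and 952 on the array labelled estradiol against 3972 on that labelled control at 6 h. Of these sums Cd24 alone supplied, in the same order, 2543, 401, 300 and 2199. Mesothelium was read by only 2 genes besides the keratins, of 6. Wt1, a transcription factor also made by uterine muscle and stroma, was 3.44-fold lower with estradiol at 24 h and 3.40-fold higher with the estradiol label at 6 h, opposite to the keratins, and Calb2 stayed under the rule. Msln and Upk3b had no probe set of their own symbol.

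Leukocytes can carry Cd24, and 13 of 21 of their markers had a probe set. The 11 above the floor had a median log2 difference of -0.86 at 24 h, with 2 higher and 5 lower, and of -0.45 at 6 h, with 0 higher and 1 lower. The summed signal of all 13 was 6682 with estradiol against 9128 in the control at 24 h, and 7472 on the array labelled estradiol against 10168 on that labelled control at 6 h. Of B cell markers, Cd79b was not above the floor on any array. RT1-Da, which presents antigen on class II molecules, was 3.44-fold lower, Lyz2, a lysozyme, 3.25-fold higher and Cd53 2.57-fold lower with estradiol at 24 h, and none of these 3 passed the rule at 6 h. Coro1a, an actin-binding protein of leukocytes, was at least 2.53-fold higher with estradiol at 24 h and at least 2.04-fold lower with the estradiol label at 6 h, the directions of Cd24. Among endometrial stroma markers 0 of 8 were higher and 2 lower at 24 h, Mme by at least 3.66-fold and Vcam1 by at least 2.52-fold, and 1 was higher at 6 h, Lum by 2.63-fold. Of 4 endothelial markers above the floor, Flt1 was 2.01-fold lower at 24 h and Kdr 3.83-fold lower at 6 h. Among 4 blood cell markers 0 passed the rule at either time, and among 7 other intermediate filament genes, desmin and vimentin included, 0 did. The part of carried-along epithelium or of any other cell type in the keratin, Cd24, Epcam and Cldn3 differences was not tested.

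The only test the 4 arrays allow is a limma fit of both times with treatment and time as terms, which has 1 residual degree of freedom and asks for a difference common to both times. It called 0 of the 12 probe sets and 0 of all 6157 probe sets after Benjamini-Hochberg adjustment. At an unadjusted p under 0.05 it called 0 of the 12 and 1.69% of all. Among the 12, the smallest unadjusted p in the limma fit was 0.224, for Muc1, with a log2 difference of -0.49 (SE 0.34). Cd24 had a log2 difference of -0.10 (SE 1.41) by its brightest probe set and Krt8 of 0.15 (SE 1.10), and for both the differences at 24 h and at 6 h ran in opposite directions as labelled. With 1 array for each group, a treatment difference that depends on time could not be tested.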

How the data were processed

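Signals of 8799 probe sets on 4 RG_U34A arrays were used as the intensity values that the authors deposited. MAS5 made them, per the submitters' processing notes, which as seen here name neither its version nor its settings. The deposited columns share a 2% trimmed mean of 500. Of the deposited instrument records, whose other values such as wash steps were not used, chip type, lot, scan day and fluidics were read, and per the file headers the lot was the same.

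Controls of the array, 59 probe sets, were left out. The platform table named 7018 probe sets with 1 symbol, 308 with several and 1473 with none, and gene identifiers in the RefSeq table changed 0 of the symbols, 21 outside the array controls being unmatched. Signals were floored at each array's 40th percentile over 8740 probe sets. A gene is represented by the probe set of highest mean signal, and named list genes are the up to 3 largest differences past the rule per list and comparison. The members, lists and rules were chosen with earlier results of these data known. Limma 3.58.1 in R 4.3.3 gave the only test. The 2-fold rule and the limma fit were run on simulated data with an assumed noise level and a treatment difference common to both times. As these arrays have no replicates, that run does not give their error rates. With 1 array for each group, the number of arrays limits the precision. Alternatives were deposited signals, other scalings, other floors, a pseudocount of 32, other folds, averaging the probe sets of a gene, other controls, no filter in the limma fit, and no _x_at or _s_at probe sets.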

Additional observations from a re-analysis of the deposited data

Results flagged for a closer look

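Krt8, Krt18, Krt19 and Cd24 passed the 2-fold rule in opposite directions at the 2 times, higher with estradiol at 24 h and lower with the estradiol label at 6 h. By the brightest probe set, the log2 difference at 24 h minus that at 6 h was 4.25 for Krt8, 4.43 for Krt18, 3.37 for Krt19 and 5.54 for Cd24. With 1 array for each group, the difference between the times was not tested. It rests on labels at 6 h to which Igf1, Pgr, S100g and Hsd11b2 run opposite.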

How the results depend on the processing

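No call among the 12 probe sets changed direction under the alternatives run. With the floor at the 60th percentile 6 probe sets in place of 10 passed the 2-fold rule at 24 h and 3 in place of 7 at 6 h, because a raised floor shortens differences of dim probe sets. Epcam and Cldn3 then had log2 differences of 0.51 and 0.75 at 24 h, and Krt8, Krt18 and Krt19 had -0.61, -0.97 and -0.31 at 6 h, all under the rule. Against the control of the other time, an alternative added once the data had been seen, 4 probe sets passed with estradiol at 24 h and 1 with the estradiol label at 6 h. Cd24 then differed by 0.21 and -0.42 and Krt18 by 0.05 and -0.31 on the log2 scale, at 24 h and 6 h, and Krt19 by -0.89 at 6 h. Of 175 values of single genes under the alternatives, 163 stayed on the same side of the rule, 10 fell under it and 2 newly passed it. The 2 were Cldn3 at 6 h and Epcam between the controls, both with the floor at the 20th percentile. Part of the 163 could not change. The deposited signals had a scale factor of 1.0 on every array and so repeat the main values. Averaging cannot change Krt8, Epcam and Muc1, which have 1 probe set each. Scaling to a common median moved the 24 h median of all probe sets to -0.03 from -0.17, the log2 ratio of the floors. Quantile normalization moved that median to 0.00. Neither changed the counts of 10, 7 and 5. The limma fit called 0 of the probe sets under every alternative. Without _x_at and _s_at probe sets Krt8 has no value. Cldn3 then keeps only its dimmer probe set, which in the main values was at least 1.66-fold higher with estradiol at 24 h, under the rule. No paired analysis was possible because each group is 1 array and the labels give no replicate numbers.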
